A study of Mus musculus with 7 samples.

Results

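Neuropeptide precursor genes of the cortex are described here, namely Npy, Cck, Crh, Cort, Adcyap1, Tac2, Nts and Pdyn, which are 8 of the 54532 genes in the deposited count table. The rule that picks them uses gene names, and the list was drawn up with earlier results of these data known. RNA was sequenced from motor cortex of mice, in a study of poly-GA, the glycine-alanine repeat protein tied to C9orf72. The groups were 4 conditional knockout (cKO) and 3 wild-type (WT) libraries, both from mice that received a virus called GA100 in the left and right lateral ventricles on postnatal day 0 and were sampled 3 months later, after behavioural tests. No group without the virus was analysed here, so each comparison is of genotype under the same virus. The labels name neither the deleted gene, the Cre driver and the cells that carry the deletion, nor the promoter of the virus. They do not say whether each library is from a separate animal, so p-values reflect library-to-library spread only, which may in part be technical. Xist had 19151 counts in cKO replicate 1 and 15217 in WT replicate 1, with 0 counts of the Y-linked Ddx3y. The other libraries had 0 to 8 counts of Xist and 1073 to 1386 of Ddx3y, so each genotype included animals of both sexes.

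Neuropeptides are cut from larger precursor proteins by proprotein convertases and carboxypeptidases, are stored in dense-core vesicles and act on G protein-coupled receptors. In the cortex many of them mark subsets of GABAergic interneurons, and others are made by glutamatergic cells. Several precursor genes are textbook targets of neuronal activity and of cyclic AMP signalling, through the cAMP response element (CRE) to which CREB binds.

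Library totals ran from 15181390 to 16403202 counts in cKO and from 15213977 to 16463721 counts in WT. Tia1, the gene named in the study's title, had 72.7 to 81.9 CPM (counts scaled to library size with TMM factors) in the libraries labelled cKO and 60.6 to 95.8 CPM in WT, so its count over the whole gene did not part the genotypes. Wherever a direction is given, cKO means the libraries carrying that label. Cortical glutamatergic markers were abundant in all libraries, with Slc17a7 at 987 to 1111 CPM in cKO and 1109 to 1473 CPM in WT. Some libraries also carried transcripts of neighbouring tissue. Summed over 9 genes, olfactory bulb markers had 218 CPM in cKO replicate 3, and 17.2 to 24.2 CPM in the other 3 cKO and 17.0 to 20.3 CPM in the WT libraries. Choroid plexus markers, summed over 8 genes, had 174 CPM in cKO replicate 4, and 19.3 to 22.9 CPM in the other cKO and 14.6 to 22.5 CPM in the WT libraries. Meningeal fibroblast markers, summed over 10 genes, were highest in cKO replicate 3 (128 CPM) and WT replicate 1 (117 CPM), against 47.9 to 71.9 CPM in the other 5 libraries. Striatal medium spiny neuron markers, summed over 13 genes, were highest in cKO replicate 2 (2357 CPM) and cKO replicate 3 (1808 CPM), against 1346 to 1696 CPM in the others. Hypothalamic markers were near 0, with 2.10 to 3.01 CPM in cKO and 1.90 to 3.57 CPM in WT summed over 10 genes, and Sim1 and Hmx2 had 0 counts in every library.

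All 8 precursors passed the filter on low counts, and none passed the test of genotype. In edgeR's quasi-likelihood test with Benjamini-Hochberg adjustment over all 16308 genes tested, 0 of the 8 had an adjusted p under 0.05, as was so for 0 genes overall (0%). At an unadjusted p under 0.05 stood 1 of the 8, Cck, against 7.14% of all genes tested. The 7 library values of every precursor overlapped between genotypes, whereas those of 7.38% of all genes did not. Log2 fold changes are given as cKO minus WT. They were positive for 5 of the 8 precursors, against 51.8% of all genes, and negative for 3, against 48.2%, with a median of 0.04 for the precursors and 0.01 for all genes. The count of positive values was 2 of 8 without cKO replicate 3, 2 without WT replicate 2, 3 without WT replicate 3, and 1 without cKO replicates 2 and 3. It was 6 without cKO replicate 2, cKO replicate 4 or WT replicate 1, and 6 with the replicate number as a block. In bulk tissue, fewer cells of a type and less RNA per cell cannot be told apart.

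Per length, in the FPKM values deposited by the authors, the order of the levels was Cck, Npy, Pdyn, Adcyap1, Crh, Cort, Tac2 and Nts. Cck had a mean of 165 ± 29.4 FPKM (SD, n = 7 libraries), Npy 55.0 ± 12.1, Pdyn 13.3 ± 2.05 and Adcyap1 7.16 ± 1.54. Crh had 4.88 ± 0.949 FPKM, Cort 3.76 ± 1.30, Tac2 2.12 ± 0.761 and Nts 2.06 ± 1.65. The ranges over the 7 libraries of Cck, Npy, Pdyn and Adcyap1 lay apart from one another. Below Adcyap1 the ranges of neighbours overlapped, although Adcyap1 exceeded Crh in 7 of 7 libraries, Crh exceeded Cort in 6 and Cort exceeded Tac2 in 7. Tac2 exceeded Nts in 3 of 7, so these 2 genes were not ordered.

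**Figure D1:**
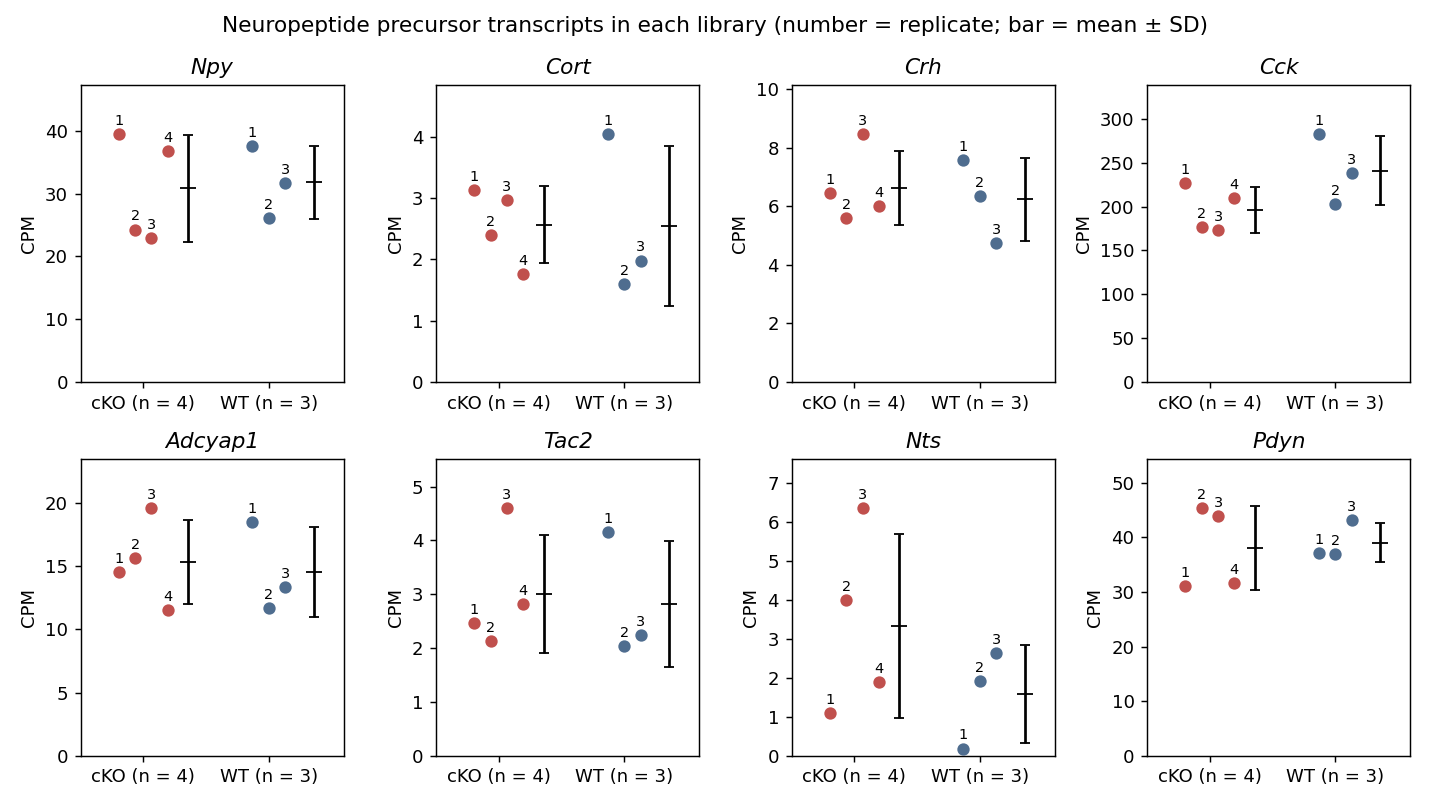
CPM (vertical axes, each from 0) of each neuropeptide precursor in every library, cKO left (n = 4) and WT right (n = 3), with replicate numbers and mean ± SD. The genotypes overlap in all 8 panels, and cKO replicate 3 or WT replicate 1 is the highest library for Cort, Crh, Cck, Adcyap1, Tac2 and Nts.

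Cck (chr9:121489824-121495694, - strand, mm10) encodes cholecystokinin, one of the most abundant peptides of the cortex, made by a class of interneurons and by many pyramidal cells. Its level was 227, 176, 173 and 210 CPM in cKO replicates 1 to 4, against 282, 203 and 238 CPM in WT replicates 1 to 3. The lowest values were those of cKO replicates 2 and 3, and WT replicate 2 lay below cKO replicates 1 and 4, so the groups overlapped. The means were 197 ± 26.3 CPM in cKO (SD, n = 4) and 241 ± 39.6 CPM in WT (SD, n = 3). This was a log2 fold change of -0.30 ± 0.12 (SE), with a 95% interval from -0.56 to -0.03, and the edgeR quasi-likelihood test gave an unadjusted p of 0.0327 and an adjusted p of 0.694. The exact permutation p for log2 CPM (two-sided, 35 assignments) was 0.171, and 0.0571 is the smallest value possible with 4 and 3 libraries. In each of the 3 pairs of libraries that share a replicate number, the cKO library was lower, and with that number as a block the log2 fold change was -0.33 ± 0.09 (SE; edgeR adjusted p = 0.503). Without WT replicate 1 it was -0.17, without WT replicate 1 and cKO replicate 3, the highest and the lowest library, it was -0.11, and it was negative in all 23 alternatives run. Markers of glutamatergic neurons, which include many cells that make Cck, summed over 14 genes to 4562 to 5343 CPM in cKO and 5373 to 5962 CPM in WT, with no overlap. That sum is mostly Camk2a, a kinase of excitatory synapses (2705 CPM on average in cKO and 3132 CPM in WT), and Slc17a7, the vesicular glutamate transporter (1058 CPM in cKO and 1305 CPM in WT). With each gene weighted equally the genotypes overlapped, at mean log2 deviations of -0.057 to -0.018 in cKO and -0.021 to 0.11 in WT. Of the 14 genes, 5 had positive and 9 negative log2 fold changes. At an unadjusted p under 0.05, 1 was higher and 5 were lower in cKO, against 4.22% and 2.91% of all genes, with 0 after adjustment, and their part in the Cck level was not tested. Cck made up 63.6%, 63.2%, 61.1% and 63.6% of the summed FPKM of the 8 precursors in cKO replicates 1 to 4, against 67.7%, 67.6% and 67.6% in WT replicates 1 to 3. These shares did not overlap between genotypes. A share does not depend on how libraries were scaled, but it was looked at after the values were known and was not tested.

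Npy (chr6:49822710-49829507, + strand) encodes neuropeptide Y, which dampens transmitter release through Y receptors and is made in the cortex by several kinds of interneuron. It had 39.4, 24.3, 22.9 and 36.8 CPM in cKO replicates 1 to 4, against 37.6, 26.1 and 31.6 CPM in WT replicates 1 to 3. Within cKO the libraries fell into a high pair, replicates 1 and 4, and a low pair, replicates 2 and 3, and all WT libraries lay within the cKO range. The means were 30.9 ± 8.49 CPM in cKO (SD, n = 4) and 31.8 ± 5.79 CPM in WT (SD, n = 3), a log2 fold change of -0.04 ± 0.19 (SE) with an edgeR adjusted p of 0.975 and a 95% interval from -0.46 to 0.38. Its sign turned without cKO replicate 2 (0.05), cKO replicate 3 (0.07) or WT replicate 1 (0.095). Without cKO replicates 2 and 3, the low pair, it was 0.26. Those libraries also had the most striatal transcripts, and the alternative that drops both was added after seeing the data. Among the 28 pairs of precursors, Npy and Cck had the most similar profile over libraries, with a root mean square difference of 0.18 between their log2 deviations.

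Promoter sequence is shown for the 4 precursors whose RefSeq promoter windows hold the CRE core TGACG on either strand (in capitals), together with Npy, which lacks these letters. Among the precursors, Npy had the library profile nearest to that of Cck (root mean square difference 0.18). Each line gives the 120 bases before the transcription start, 5′ to 3′ on the gene's strand, from RefSeq on GRCm38.p6; for Nts the stretch lies farther upstream and ends where the gene of the count table begins.
Cck, chr9:121495695-121495814, - strand: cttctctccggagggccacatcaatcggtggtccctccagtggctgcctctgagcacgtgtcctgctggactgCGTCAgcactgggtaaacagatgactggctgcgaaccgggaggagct
Npy, chr6:49822590-49822709, + strand: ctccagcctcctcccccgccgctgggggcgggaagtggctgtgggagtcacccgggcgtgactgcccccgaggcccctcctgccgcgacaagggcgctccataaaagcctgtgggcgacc
Cort, chr4:149126764-149126883, - strand: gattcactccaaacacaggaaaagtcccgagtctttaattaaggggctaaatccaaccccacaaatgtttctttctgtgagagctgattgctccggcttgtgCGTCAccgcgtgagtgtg
Adcyap1, chr17:93198897-93199016, + strand: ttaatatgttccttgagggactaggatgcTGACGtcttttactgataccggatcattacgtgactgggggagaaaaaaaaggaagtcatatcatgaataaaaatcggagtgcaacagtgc
Nts, chr10:102490487-102490606, - strand: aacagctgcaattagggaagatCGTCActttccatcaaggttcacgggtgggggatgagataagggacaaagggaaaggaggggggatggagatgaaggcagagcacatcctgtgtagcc
Windows from 250 bases before to 50 after the start were found for 7 of the 8 precursors (9 windows). No window was available for Crh, so the counts that follow say nothing about its promoter. The core TGACG, read on both strands, was present in 4 of the 7 genes (Cck, Cort, Adcyap1 and Nts; 5 of 9 windows, 2 of which share the site of Adcyap1) and in 20.8% of the 32851 promoter windows of the genome. The full palindrome TGACGTCA, which contains that core, was present in 0 of 9 windows and in 1.79% of all. TATAAA on the gene's strand was present in 1 window, of Adcyap1, and in 8.32% of all. These counts describe letters in the window only. The genes that hold the core had log2 fold changes of -0.30 (Cck), 0.01 (Cort), 0.08 (Adcyap1) and 1.07 (Nts). Those with windows that lack it had -0.04 (Npy), 0.09 (Tac2) and -0.04 (Pdyn). None of these genes passed the adjusted threshold in the main test, and the part of the core in these levels was not tested.

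Cort (chr4:149125034-149126763, - strand) encodes cortistatin, a small peptide that binds the somatostatin receptors and is made by cortical interneurons. It had 3.13, 2.39, 2.98 and 1.75 CPM in cKO replicates 1 to 4, against 4.04, 1.61 and 1.98 CPM in WT replicates 1 to 3. WT replicate 1 was the highest and WT replicate 2 the lowest of all 7 libraries, so the WT range enclosed that of cKO. Its counts were low, 26 to 66 per library, and the means were 2.57 ± 0.627 CPM in cKO (SD, n = 4) and 2.54 ± 1.31 CPM in WT (SD, n = 3). Cort had a log2 fold change of 0.01 ± 0.33 (SE; edgeR adjusted p = 0.997; 95% interval from -0.72 to 0.74). It ranged from -0.25 to 0.51 when 1 library was left out.

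Crh (chr3:19693401-19695396, - strand) encodes corticotropin-releasing hormone, which starts the hormonal stress response from the hypothalamus and is made in the cortex by interneurons. It had 6.45, 5.59, 8.46 and 6.01 CPM in cKO replicates 1 to 4, against 7.59, 6.36 and 4.75 CPM in WT replicates 1 to 3. The highest library of each genotype was cKO replicate 3 and WT replicate 1, and the groups overlapped. Crh had a log2 fold change of 0.08 ± 0.20 (SE; edgeR adjusted p = 0.938; 95% interval from -0.35 to 0.52). It was -0.06 without cKO replicate 3.

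Adcyap1 (chr17:93199422-93205485, + strand) encodes PACAP, a peptide that raises cyclic AMP through the PAC1 receptor. It had 14.6, 15.6, 19.6 and 11.5 CPM in cKO replicates 1 to 4, against 18.5, 11.7 and 13.3 CPM in WT replicates 1 to 3. Again cKO replicate 3 and WT replicate 1 were the highest, and the ranges nearly coincided. Means were 15.3 ± 3.34 CPM in cKO (SD, n = 4) and 14.5 ± 3.56 CPM in WT (SD, n = 3), and the log2 fold change was 0.08 ± 0.19 (SE; edgeR adjusted p = 0.942; 95% interval from -0.34 to 0.49). Without cKO replicate 3 it was -0.07, and without WT replicate 1 it was 0.28.

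Tac2 (chr10:127724478-127731768, + strand) encodes the precursor of neurokinin B, a tachykinin that acts mainly on the receptor Tacr3. It had 2.47, 2.13, 4.60 and 2.82 CPM in cKO replicates 1 to 4, against 4.16, 2.04 and 2.25 CPM in WT replicates 1 to 3. As for Crh and Adcyap1, the peaks were cKO replicate 3 and WT replicate 1, which held 68 counts each where the other 5 libraries held 32 to 45. Tac2 had a log2 fold change of 0.09 ± 0.33 (SE; edgeR adjusted p = 0.967; 95% interval from -0.62 to 0.80). It was -0.20 without cKO replicate 3 and 0.48 without WT replicate 1. These 2 libraries were also those with the highest meningeal fibroblast sums (128 and 117 CPM), whose part in these levels was not tested. Without both libraries the log2 fold change was 0.11 for Crh, 0.15 for Adcyap1 and 0.21 for Tac2.

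Nts (chr10:102481756-102490486, - strand) encodes the precursor of neurotensin, a peptide best known for its effects on dopamine pathways and body temperature. It had the largest log2 fold change and the widest spread of the 8, at 1.09, 3.99, 6.36 and 1.88 CPM in cKO replicates 1 to 4, against 0.18, 1.91 and 2.64 CPM in WT replicates 1 to 3. The counts were 18, 60, 94 and 30 in cKO and 3, 31 and 40 in WT, and cKO replicates 1 and 4 lay below WT replicate 3. Between the extreme libraries, cKO replicate 3 and WT replicate 1, the ratio was 34.6, with an exact 95% counting interval from 11.5 to 171. The means were 3.33 ± 2.36 CPM in cKO (SD, n = 4) and 1.58 ± 1.26 CPM in WT (SD, n = 3). Nts had a log2 fold change of 1.07 ± 0.66 (SE; edgeR adjusted p = 0.745; 95% interval from -0.36 to 2.50). The exact permutation p (two-sided) was 0.4. In each of the 3 pairs that share a replicate number the cKO library was higher, and with that number as a block the log2 fold change was 1.37 ± 0.33 (SE; edgeR adjusted p = 0.492). With no filter on low counts, where edgeR called 198 of 31277 genes, the adjusted p was 0.0487 at the same fold change (1.07), and over all 23 alternatives it ran from 0.0487 to 1.00. Without cKO replicate 3 the log2 fold change was 0.54, without WT replicate 1 it was 0.53, and without both it was 0.01. Without cKO replicates 2 and 3 it was -0.09. Those libraries had the highest Nts levels as well as the highest striatal sums, and the alternative was added after seeing the data. The part of neighbouring tissue in the Nts level was not tested.

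Pdyn (chr2:129686565-129699844, - strand) encodes prodynorphin, the source of dynorphins, which act on the kappa opioid receptor, and is made by striatal projection neurons as well as by cortical cells. Its highest library exceeded its lowest by a factor of 1.46, the smallest such factor among the 8. It had 31.2, 45.4, 44.0 and 31.6 CPM in cKO replicates 1 to 4, against 37.1, 36.9 and 43.1 CPM in WT replicates 1 to 3. Within cKO, replicates 2 and 3 were the high pair and replicates 1 and 4 the low pair, the reverse of Npy. The order of cKO replicates 2 and 3 over 1 and 4 is also that of the summed striatal markers, at 2357 and 1808 CPM against 1392 and 1606 CPM, and their part in the Pdyn level was not tested. The log2 fold change was -0.04 ± 0.14 (SE; edgeR adjusted p = 0.966; 95% interval from -0.35 to 0.27). It was -0.32 without cKO replicates 2 and 3, the high pair, an alternative added after seeing the data.

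**Figure D2:**
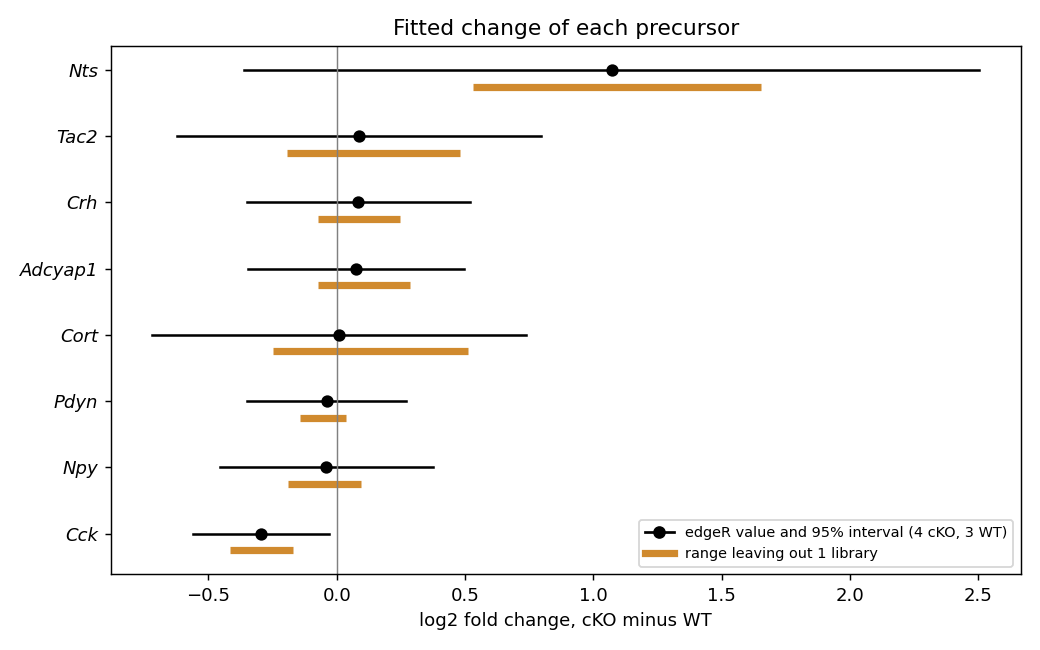
Log2 fold change (horizontal axis, cKO minus WT) of each precursor, with the edgeR 95% interval in black (4 cKO and 3 WT libraries) and the range obtained by leaving out 1 library in orange. The interval of Cck (-0.56 to -0.03) lies below 0 before adjustment for multiple tests, and those of the other 7 span 0.

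**Figure D3:**
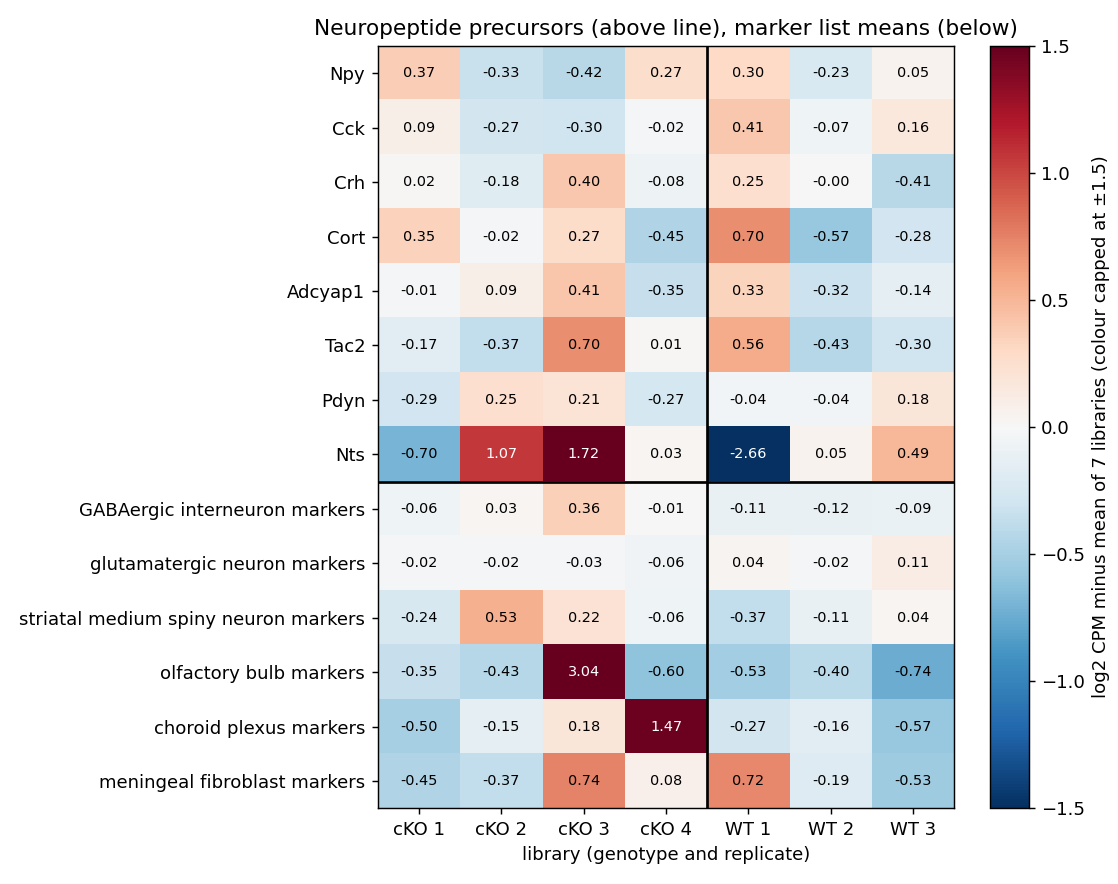
Log2 CPM minus its mean over the 7 libraries for each precursor (above the line), and the mean of such deviations over each marker list (below the line); columns are cKO replicates 1 to 4, then WT replicates 1 to 3. Nts runs from -2.66 in WT replicate 1 to 1.72 in cKO replicate 3, while olfactory bulb markers are at 3.04 in cKO replicate 3.

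The spread within genotypes differed widely among the precursors. Npy had a coefficient of variation of 27.5% in cKO and 18.2% in WT, where its mean count of 494 gives a counting error of 4.50%. Cck had 13.4% in cKO and 16.4% in WT against 1.71% from counting. The widest was Nts, at 71.0% in cKO and 79.9% in WT against 15.9% from counting. The biological coefficient of variation estimated by edgeR, which sets counting error aside, was 58.1% for Nts, 28.1% for Cort and 27.6% for Tac2. It was 17.9% for Adcyap1, 17.8% for Npy, 17.3% for Crh, 13.5% for Pdyn and 11.9% for Cck. Each of the 8 lay above the trend fitted over all genes at its abundance, by a factor of 1.02 for Crh up to 2.53 for Nts, whereas 30.2% of all tested genes lay above it. No test was made of this share.

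**Figure D4:**
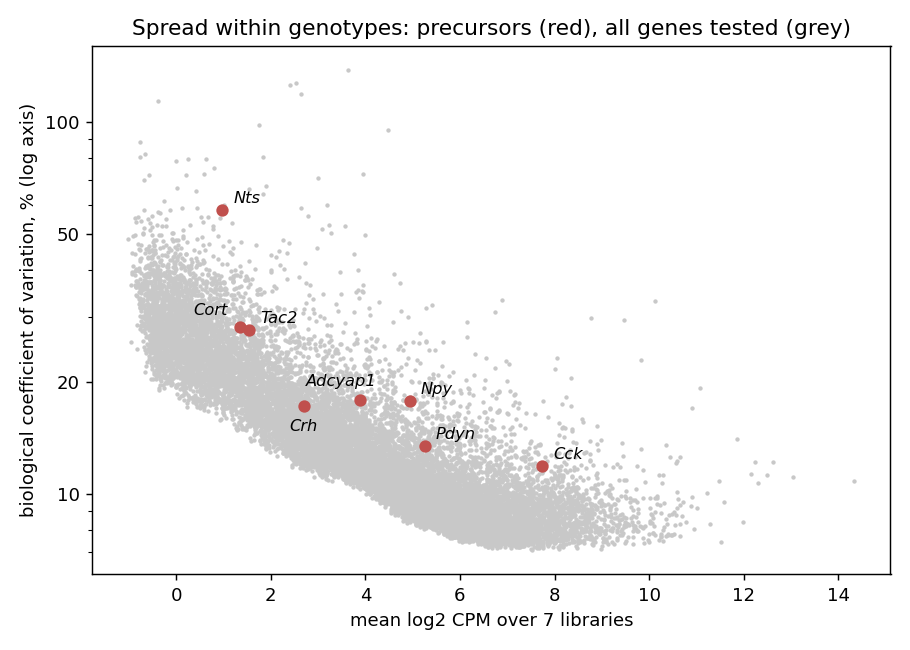
Biological coefficient of variation in percent (vertical, log axis) against mean log2 CPM (horizontal) for the 16308 genes tested (grey) and the 8 precursors (red). Nts, at 58.1%, stands above most genes of its abundance, and Cck, the most abundant precursor, is at 11.9%.

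Among genes with a mean of at least 5 CPM, the profile nearest to that of Cck over the 7 libraries was that of Pop7 (root mean square difference of log2 deviations 0.04), followed by Polr2f (0.05). For Crh these were Apcdd1 (0.07) and Rad18 (0.10), for Pdyn St8sia3 (0.07) and Caln1 (0.07), and for Adcyap1 Ccdc148 (0.09) and Klhdc8a (0.11). For Npy they were Ankrd9 and Smox (0.10 each), for Tac2 Mycl (0.11) and Mrc1 (0.14), and for Cort Plpp1 and Lyar (0.23 each). Among these candidates Nts had no close partner: the nearest, Baz1a and Hist1h2be, differed from it by 0.88 each. Its own deviations had a root mean square of 1.30, and this measure grows with a gene's own spread. Nts, at means of 3.33 CPM in cKO and 1.58 CPM in WT, lay below the 5 CPM asked of candidates, so genes of its own level were not searched. With 11184 candidates and 7 libraries these are descriptions only.

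Receptors and binding proteins of these peptides were next compared, as 21 genes of which 20 were tested. None passed the adjusted threshold, and at an unadjusted p under 0.05 stood 2 genes higher in cKO and 2 lower, against 4.22% of all genes with higher and 2.91% with lower values. The median log2 fold change was -0.03, with 8 positive and 12 negative values. Tacr3, the receptor for neurokinin B, had 3.26, 4.99, 2.84 and 2.51 CPM in cKO replicates 1 to 4, against 1.53, 2.16 and 2.05 CPM in WT replicates 1 to 3. Each cKO library lay above each WT library, unlike those of its ligand gene Tac2. The Tacr3 counts were low, at 54, 75, 42 and 40 in cKO and 25, 35 and 31 in WT. The log2 fold change of Tacr3 was 0.83 ± 0.28 (SE), with an edgeR adjusted p of 0.679, and leaving out 1 library moved it between 0.58 and 0.94. Crhbp, which encodes a secreted protein that binds and inactivates corticotropin-releasing hormone, had 19.6 to 23.8 CPM in cKO and 17.1 to 18.8 CPM in WT, with no overlap. Its log2 fold change was 0.28 ± 0.11 (SE; edgeR adjusted p = 0.694).

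Sstr1, a somatostatin receptor that cortistatin also binds, had 12.3 to 15.2 CPM in cKO and 15.99 to 21.2 CPM in WT, with no overlap. Of the 20 genes tested in this list, only Tacr3, Crhbp and Sstr1 had no overlap, against 7.38% of all genes. The log2 fold change of Sstr1 was -0.42 ± 0.13 (SE, edgeR adjusted p = 0.679), and -0.31 to -0.52 when 1 library was left out. Sstr4, another such receptor, had a log2 fold change of -0.30 ± 0.14 (edgeR adjusted p = 0.696), and its groups overlapped. The most abundant genes of the list were Sort1, which encodes the sorting receptor sortilin that binds neurotensin, at 716 ± 22.6 CPM in cKO (SD, n = 4) and 734 ± 22.4 CPM in WT (SD, n = 3), and Adcyap1r1, the PAC1 receptor, at 210 ± 15.2 CPM in cKO and 210 ± 18.2 CPM in WT. Cckbr, the main cholecystokinin receptor of the brain, had 39.7 to 54.5 CPM in cKO and 43.7 to 56.9 CPM in WT. Vipr2, a receptor for PACAP and a related peptide, had 6.56 CPM in cKO replicate 3, the library with olfactory bulb markers, and 0.42 to 1.00 CPM in the other 6 libraries.

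Of 19 genes for peptide processing and dense-core vesicles, all tested, 9 had positive and 10 negative log2 fold changes, with a median of -0.02. None passed the adjusted threshold, and at an unadjusted p under 0.05 stood 2 genes higher in cKO and 1 lower, against 4.22% and 2.91% of all genes. The 2 main neuroendocrine convertases, which cut precursors at basic residues, had opposite signs. Pcsk1 had 74.4, 100.4, 99.7 and 89.5 CPM in cKO replicates 1 to 4, against 70.7, 71.2 and 74.7 CPM in WT replicates 1 to 3, a log2 fold change of 0.33 ± 0.10 (SE; edgeR adjusted p = 0.679). Only cKO replicate 1 lay within the WT range. Pcsk2 had 419, 407, 400.0 and 394 CPM in cKO replicates 1 to 4, against 471, 427 and 489 CPM in WT replicates 1 to 3. Its log2 fold change was -0.19 ± 0.08 (SE, edgeR adjusted p = 0.694). Of the 19 genes, Pcsk2 alone had no overlap between genotypes, against 7.38% of all genes. Cpd, a carboxypeptidase, had a log2 fold change of 0.24 ± 0.09 (edgeR adjusted p = 0.694). Cpe, the carboxypeptidase that trims most neuropeptides, was the most abundant at 1928 ± 111 CPM in cKO (SD, n = 4) and 2017 ± 96.2 CPM in WT (SD, n = 3). Pcsk1n, which encodes an inhibitor of the convertase PC1, came next among the named genes at 411 ± 72.0 CPM in cKO and 468 ± 53.1 CPM in WT.

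**Figure D5:**
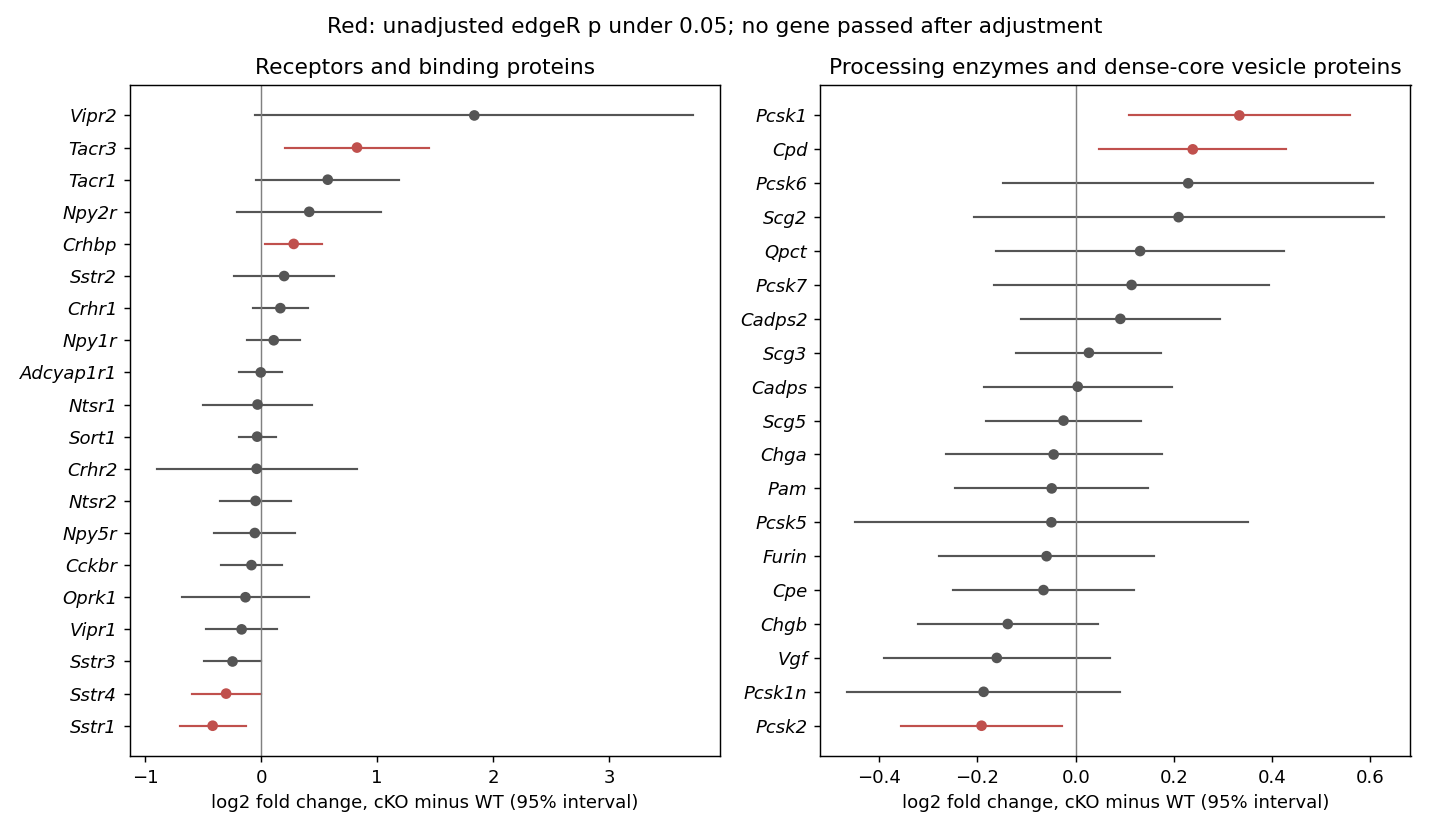
Log2 fold change (horizontal axes, cKO minus WT) with edgeR 95% intervals for 20 receptor and binding protein genes (left) and 19 processing and dense-core vesicle genes (right), ordered by value. Red marks an unadjusted p under 0.05, as for Tacr3 (0.83), Sstr1 (-0.42), Pcsk1 (0.33) and Pcsk2 (-0.19); none passed after adjustment.

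Markers of GABAergic interneurons, the cells that make several of these peptides, had 18 positive and 2 negative log2 fold changes among 20 tested, against 51.8% positive over all genes, with a median of 0.13, and 0 passed the adjusted threshold. In other lists, values were positive for 13 of 13 striatal markers (median 0.29), 9 of 9 oligodendrocyte markers (median 0.42) and 5 of 5 olfactory bulb markers tested (median 1.51). Of the oligodendrocyte markers, 4 were higher in cKO at an unadjusted p under 0.05, against 4.22% of all genes, and 0 passed after adjustment. The olfactory bulb sum was high in cKO replicate 3 alone, at 218 CPM against 17.0 to 24.2 CPM in the other libraries. The summed oligodendrocyte markers ranged from 4099 to 8148 CPM in cKO and from 3756 to 5740 CPM in WT, with overlap. Activity-dependent genes, to which several precursors belong by textbook knowledge, had 17 positive and 3 negative log2 fold changes among 20 tested, with a median of 0.20. At an unadjusted p under 0.05, 6 were higher in cKO, against 4.22% of all genes, and 0 passed after adjustment. The sum of the interneuron markers was 2229 to 2791 CPM in cKO, highest in replicate 3, and 2114 to 2201 CPM in WT. Gad1, a GABA-synthesising enzyme, had 385, 439, 591 and 381 CPM in cKO replicates 1 to 4, against 355, 346 and 386 CPM in WT replicates 1 to 3 (log2 fold change 0.31 ± 0.14, SE; edgeR adjusted p = 0.696). It was 0.14 without cKO replicate 3. Gad1, Gad2 and Slc32a1 together had 702, 856, 1105 and 710 CPM in cKO replicates 1 to 4, against 673, 641 and 735 CPM in WT replicates 1 to 3. These sums were highest in cKO replicates 2 and 3, as were the striatal sums. Whether the listed genes mark cortical interneurons alone was not tested. Nor was the part of neighbouring tissue in their levels, or in a scaling by these 3 genes. When libraries were scaled to the summed counts of Gad1, Gad2 and Slc32a1 in place of the usual factors, the median log2 fold change of all genes moved to -0.26 and that of the 8 precursors to -0.24. On that scale Nts alone had a positive value (0.69), and Cck had -0.53, and the other 6 were also negative.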

How the data were processed

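The authors deposited raw gene counts and FPKM values for the same 54532 genes in 7 motor cortex libraries. The submitters' processing notes list the build mm10 and the tools featureCounts (1.5.0-p3) and DESeq2 (1.20.0); the sources used here name no aligner, annotation release or strand setting. The labels' protocols describe no step that marks strand. No other annotated gene overlaps any of the 8 precursors in the table. Every row had a gene name.

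The counts were tested with edgeR 4.0.16 (R 4.3.3): TMM factors, filterByExpr, quasi-likelihood F test of genotype, Benjamini-Hochberg adjustment over the 16308 genes kept, threshold 0.05. CPM use TMM-scaled library sizes; deviations use log2 CPM with a prior count of 2. Standard errors are the fold change divided by the root of F. Single genes were also compared by exact permutation in SciPy 1.17.1. The edgeR step was tested on simulated counts. Figures used matplotlib 3.10.9.

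The members and gene lists were chosen with earlier results of these data known. All 8 members are named. Of each other list the rule takes genes past the threshold or else up to 4 with an unadjusted p under 0.05, and the 2 most abundant; those examples are printed for the receptor, processing, other precursor and interneuron lists, except 1 gene that is not reported here. Vipr2 and Cckbr, the precursors other than Grp, Apln and Pnoc, and the marker genes named beside library checks fall outside that rule and were picked with their values seen. For each member the 2 genes nearest in profile are named (mean CPM of at least 5).

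Alternatives were other scalings, filters and tools (DESeq2 1.42.0, limma 3.58.1 on counts and on log2(FPKM + 1) or log2(FPKM + 0.1)), the replicate number as a block, and libraries left out. Both genotypes share replicate numbers. The labels state no pairing, so the main test used no block, and the number served as a block in an alternative only. For libraries numbered 1, 2 and 3 the correlations of deviations from group means were 0.110, 0.128 and 0.122, each above 0.1. Other pairs correlated as much or more: cKO replicate 3 with WT replicate 1 gave 0.129 and cKO replicate 4 with WT replicate 2 gave 0.210. The labels give a single batch value for all samples. Every pair of libraries differed beyond sampling noise (chi-square of 4.76 to 25.5 per degree of freedom), and each counted as 1 replicate. Intervals on counts cover counting error only.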

Additional observations from a re-analysis of the deposited data

How the results depend on the processing

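No precursor passed an adjusted p of 0.05 in the main edgeR test or in the alternatives run, except Nts with no filter on low counts (log2 fold change 1.07, adjusted p = 0.0487). The number of genes called was 0 in the main test, 198 with no filter, 3 with DESeq2, 3 on log2(FPKM + 1) with no filter, 2 with the replicate block, 1 without cKO replicates 3 and 4, 1 without WT replicate 1 and cKO replicate 3, and 0 to 3 when 1 library was left out; the cause was not tested. The replicate block changed no precursor's call; under it Pdyn had 0.026, Cck -0.33 and Nts 1.37, and cKO replicate 4 has no WT partner. Cck kept its sign throughout, and Nts turned only without cKO replicates 2 and 3 (-0.085), an alternative added after seeing the data, as were the other 2 that drop a pair of named libraries. The number of precursors with a positive value, 5 in the main test, was 1 without cKO replicates 2 and 3, 1 when scaled by Gad1, Gad2 and Slc32a1, and 2 to 6 when 1 library was left out. That scaling moved the median of all genes to -0.26, so values near 0 turned negative with it: Crh had -0.21, Cort -0.27, Adcyap1 -0.23, Tac2 -0.23, Cpd -0.031 and Pnoc -0.21. Cort had -0.011 with upper-quartile factors. Without cKO replicates 3 and 4, Npy had 0.00039, Crh -0.057, Tac2 -0.30 and Pnoc -0.0032. Without cKO replicates 2 and 3, Npy had 0.26, Crh -0.0045, Cort -0.059, Adcyap1 -0.16 and Tac2 -0.095. Without WT replicate 1 and cKO replicate 3, Cck had -0.11, Npy 0.22, Pdyn -0.15 and Adcyap1r1 0.0096. Another alternative dropped cKO replicate 1 and WT replicate 1, the libraries that carry Xist and no Y-linked transcripts. Without them Tac2 had 0.57, Adcyap1 0.31, Crh 0.26, Pdyn 0.0072 and Adcyap1r1 0.073. With the replicate block Adcyap1r1 had 0.030. Leaving out 1 library gave -0.19 to 0.095 for Npy, -0.42 to -0.17 for Cck, -0.075 to 0.25 for Crh, -0.25 to 0.51 for Cort, -0.072 to 0.28 for Adcyap1, -0.20 to 0.48 for Tac2, 0.53 to 1.65 for Nts, -0.14 to 0.038 for Pdyn and -0.067 to 0.054 for Adcyap1r1. Depth limits Cort, Tac2 and Nts most, with mean counts of 40.3, 45.9 and 39.4 per library.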

Other observations

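Other neuropeptide precursor genes were mostly near 0 in these libraries: of 35 listed, 11 passed the filter and were tested. Of these, 5 had positive and 6 negative log2 fold changes, against 51.8% and 48.2% of all genes. None passed the adjusted threshold, and 1 of the 11, Grp, had an unadjusted p under 0.05, against 7.14% of all genes. Grp, the precursor of gastrin-releasing peptide, had 1.75, 2.46, 2.91 and 2.69 CPM in cKO replicates 1 to 4, against 4.83, 2.66 and 3.76 CPM in WT replicates 1 to 3. Its log2 fold change was -0.61 ± 0.26 (SE, edgeR adjusted p = 0.694). It ranged from -0.82 to -0.39 when 1 library was left out, and from -0.90 to -0.26 in the other alternatives. Apln, the precursor of apelin, was the most abundant of the list, at 37.9, 33.2, 17.0 and 36.5 CPM in cKO replicates 1 to 4, against 20.1, 29.1 and 22.5 CPM in WT replicates 1 to 3. Its log2 fold change was 0.38 ± 0.23 (SE, edgeR adjusted p = 0.738). With 1 library left out it was lowest without cKO replicate 1, at 0.27. It was highest without cKO replicate 3, the lowest library, at 0.58 ± 0.12 (edgeR adjusted p = 0.137). The other alternatives ran from 0.16, without cKO replicate 1 and WT replicate 1, to 0.64, without cKO replicates 2 and 3. Pnoc, the nociceptin precursor, had 5.12 ± 0.716 CPM in cKO (SD, n = 4) and 4.90 ± 0.363 CPM in WT (SD, n = 3).

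Several of these precursors stood out in cKO replicate 3, the library with olfactory bulb markers. Trh, the thyrotropin-releasing hormone precursor, had 6.83 CPM there and 0.18 to 1.25 CPM in the other 6 libraries. Cartpt, the CART peptide precursor, had 8.79 CPM there and 2.11 to 3.76 CPM elsewhere, and Nmb, the neuromedin B precursor, had 2.98 CPM there and 0.56 to 0.99 CPM elsewhere. Among the 8 precursors of the report, Nts, Tac2, Crh and Adcyap1 were highest in cKO replicate 3, and Npy and Cck were lowest in it. WT replicate 1, where olfactory bulb markers were low, came close for Tac2 (4.16 against 4.60 CPM), Crh (7.59 against 8.46 CPM) and Adcyap1 (18.5 against 19.6 CPM). For Nts it was the lowest library. The part of olfactory bulb tissue in these levels was not tested.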
